A study of Mus musculus with 5 samples.

Results

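Isolated CpGs flanked by A or T are CpG dyads (both strands of a CpG counted as 1 site) that have no other CpG within 35 bp on either side and whose neighboring base is A or T on both sides. They were found by position and sequence alone, without use of the methylation calls. On the 19 autosomes of the mouse assembly GRCm38 (mm10), 2998463 of 20383623 CpG dyads (14.7%) met both conditions. They were set beside isolated dyads with C or G on both sides (1587311 dyads, 7.79%) and with A or T on 1 side only (4288599 dyads, 21.04%). The samples were bone marrow AML blasts of C57BL/6 mice in whole-genome bisulfite sequencing, a method that reads each cytosine as methylated or unmethylated. All 5 libraries carried Cebpa-/p30, in which one allele of *Cebpa* is deleted and the other encodes only the short p30 protein. The 2 Tet2+/+ libraries (numbers 23 and 24) had intact *Tet2*, and the 3 Tet2-/- libraries (numbers 5, 7 and 8) had lost it. *Cebpa* and, in Tet2-/-, *Tet2* were recombined by *Mx1-Cre*, which Poly(I)-Poly(C) induces in blood and other tissues, after transplantation into irradiated recipients. Donor-derived cells were sorted, and cells with the T, B and erythroid surface markers CD3, B220 and Ter119 were left out. The study counts as many mice as libraries in each group, which the labels leave unsaid. The identity of the blasts was not checked against RNA markers, since RNA was not analysed here.

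After each round of replication the new DNA strand is unmethylated, and the methyltransferase DNMT1, brought to the half-methylated site by UHRF1, copies the mark. A CpG that stands alone between A or T is copied less completely than one in a cluster or between C or G. Such sites are known to lose methylation as cells divide, above all in gene-poor, late-replicating chromatin that forms partially methylated domains. TET2 acts in the other direction from the methyltransferases, since it oxidizes methylated cytosine toward removal. Cell divisions and replication timing were not measured in these libraries.

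Sequences of member dyads are shown to make the class concrete, with the CpG and its 2 neighbors in capitals and 34 further bases on each side (RefSeq sequence of GRCm38, plus strand, 5′ to 3′). Each is the member closest to the middle of a 100 kb window described below. The first lies in a window of *Hoxc* genes that was among the lowest in methylation, at chr15:102948827-102948898, outside protein-coding genes.
Hoxc window: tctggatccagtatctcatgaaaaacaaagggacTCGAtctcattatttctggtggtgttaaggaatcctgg
The second lies in an intron of *Arhgap15*, in one of the highest windows, at chr2:44150443-44150514.
Arhgap15 window: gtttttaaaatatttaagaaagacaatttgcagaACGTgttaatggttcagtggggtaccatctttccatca
The third lies in an exon of *Prkch*, in a window that was higher in Tet2-/-, at chr12:73649966-73650037.
Prkch window: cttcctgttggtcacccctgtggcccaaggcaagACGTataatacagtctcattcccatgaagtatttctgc
The last lies outside protein-coding genes in a window that was lower in Tet2-/-, at chr16:53849926-53849997.
Chromosome 16 window: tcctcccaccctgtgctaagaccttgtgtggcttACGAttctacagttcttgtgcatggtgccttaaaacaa
The nearest other CpG was 251 bp away from the *Hoxc* dyad, 91 bp from that in *Arhgap15*, 126 bp from that in *Prkch* and 49 bp from that on chromosome 16. A single dyad is shallow. The *Hoxc* dyad had 1 methylated call of 10 and 1 of 8 in Tet2+/+ and none among 7, 9 and 13 calls in Tet2-/-. The *Prkch* dyad had no methylated call among 6 and 4 in Tet2+/+ and 2 of 13, 2 of 8 and 0 of 2 in Tet2-/-. The dyad on chromosome 16 had 5 of 5 and 6 of 7 methylated calls in Tet2+/+ and 5 of 5, 2 of 2 and 1 of 4 in Tet2-/-. Calls were therefore pooled over classes of dyads and over windows, as the methylated share of all calls.

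The member dyads had a mean depth of 3.65 and 3.39 calls in Tet2+/+ libraries 23 and 24 and of 4.74, 4.498 and 2.85 calls in Tet2-/- libraries 5, 7 and 8. Between 80.6% and 88.7% of them had a call in a library, and 69.7% had one in all 5. Over the second longest coding exon of *Tet2* (chr3:133466740-133468190, 27 dyads), the libraries labeled Tet2+/+ had 83 and 111 calls and the 3 labeled Tet2-/- had 0, which allows up to 3 counts in each. The longest coding exon had calls in every library (249 to 402). Mitochondrial CpGs, which should be unmethylated, read as methylated in 0.807% to 0.989% of calls, a range in which the groups overlapped.

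Isolated CpGs flanked by A or T were the least methylated of the isolated classes, and they were higher in Tet2-/- than in Tet2+/+. In Tet2+/+, library 23 had a level of 58.0% and library 24 one of 52.2%. In Tet2-/-, library 5 was at 62.5%, library 7 at 68.4% and library 8 at 58.7%. All Tet2-/- libraries lay above both Tet2+/+ libraries, but library 8 lay close to library 23. Tet2+/+ had a mean of 55.1% ± 4.16 (SD, n = 2) and Tet2-/- one of 63.2% ± 4.90 (SD, n = 3). They differed by 8.12 points (two-sided exact permutation test, p = 0.2). The smallest p that this design allows is 0.1, so no single value can pass 0.05. Without library 24 the difference was 5.18 points, without library 7 it was 5.51 points, and without library 23 it was 11.1 points. The unmethylated share in Tet2-/- was 0.819 of that in Tet2+/+. For all autosomal dyads, which rose by 6.59 points, it was 0.813 of that in Tet2+/+. For isolated dyads it was 0.773 with A or T on 1 side and 0.765 with C or G on both sides.

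The member dyads lay farther below the other isolated classes than the genotypes lay apart. Dyads with A or T on 1 side were at 67.5% ± 3.80 in Tet2+/+ (SD, n = 2) and 74.9% ± 4.05 in Tet2-/- (SD, n = 3). Dyads with C or G on both sides were at 75.2% ± 2.80 in Tet2+/+ (SD, n = 2) and 81.0% ± 3.35 in Tet2-/- (SD, n = 3). The difference between the groups was 7.38 points for A or T on 1 side and 5.82 points for C or G on both sides. Within a library, dyads between C or G were above the member dyads by 19.1 and 21.1 points in Tet2+/+ libraries 23 and 24 and by 17.5, 16.3 and 19.6 points in Tet2-/- libraries 5, 7 and 8. The gap was present in 5 of 5 libraries, and the groups overlapped in its size. It was smaller in Tet2-/- by 2.30 points on average (exact permutation test, two-sided, p = 0.3), but the direction depended on the scale. As a difference of log-odds the gap was 0.895 and 0.920 in Tet2+/+ and 0.873, 0.943 and 0.934 in Tet2-/-. As a ratio, the unmethylated share of member dyads was 1.84 and 1.79 times that of dyads between C or G in Tet2+/+, and 1.87, 2.07 and 1.91 times in Tet2-/-. The exact permutation p was 0.8 for the log-odds, where the groups overlapped, and 0.2 for the ratio, where they did not.

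**Figure D1:**
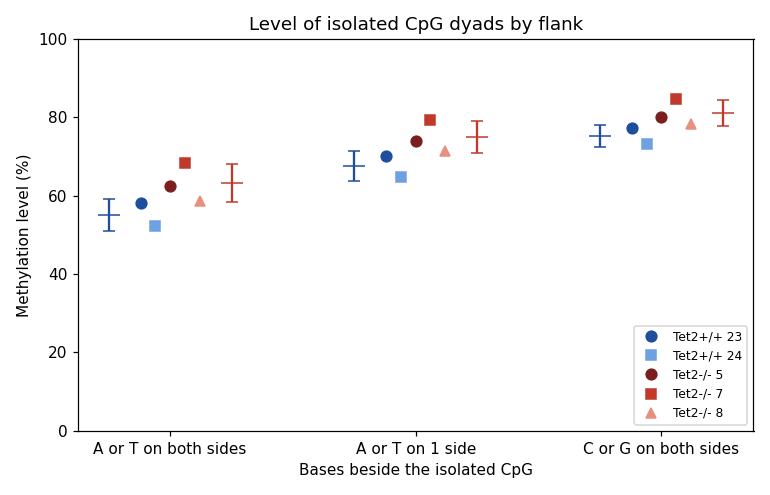
Methylation level (%) of isolated CpG dyads by the bases beside them, in the 2 Tet2+/+ libraries (blue) and the 3 Tet2-/- libraries (red). Points are libraries, and the marks at the side are group means with SD. The member dyads (left) lie between 52.2% and 68.4%, and those between C or G (right) between 73.2% and 84.8%.

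Not all members were alike, and the identity of the neighbors inside the class went with the level. Dyads read as ACGT numbered 891607, dyads read as TCGA numbered 702169, and those read as ACGA on one strand, with TCGT on the other, numbered 1404687. ACGT was at 59.4% and 53.5% in Tet2+/+ and at 64.5%, 70.5% and 61.4% in Tet2-/-. TCGA was at 56.6% and 50.7% in Tet2+/+ and at 59.98%, 66.1% and 55.7% in Tet2-/-. The groups did not overlap for ACGT, whereas for TCGA library 8 lay below library 23. The mixed dyads were in between, with group means of 54.9% and 63.0%. The difference between the groups was 8.99 points for ACGT, 8.13 points for the mixed dyads and 6.96 points for TCGA. Without library 24 these became 6.03, 5.19 and 4.04 points, and without library 7 they became 6.49, 5.51 and 4.21 points.

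The gap between the palindromes ACGT and TCGA was narrower than that between the flank classes, and it separated the groups. ACGT was above TCGA by 2.86 and 2.76 points in Tet2+/+ libraries 23 and 24 and by 4.55, 4.34 and 5.64 points in Tet2-/- libraries 5, 7 and 8. This contrast was chosen after its values were seen and is given as a description. The groups kept apart when the gap was taken as a difference of log-odds (0.117 and 0.111 against 0.194, 0.201 and 0.233). Without any 1 library the difference of 2.03 points became 1.63 to 2.29 points. Where both second neighbors were A or T, TCGA was the higher of the pair in Tet2+/+ (a gap of -1.71 and -1.69 points), and ACGT was the higher in Tet2-/- (0.222, 0.297 and 0.642 points). Where both were C or G, ACGT was above TCGA by 9.33 and 9.61 points in Tet2+/+ and by 10.4, 9.78 and 12.4 points in Tet2-/-. In the unmethylated mitochondrial DNA, 0.955% and 0.844% of calls before A read as methylated in Tet2+/+ and 1.21%, 1.03% and 1.09% in Tet2-/-. There the groups did not overlap, but with 2117 to 3142 calls per library these shares rest on few methylated calls. Whether they differ beyond counting error was not tested. Before T it was 0.834% and 0.979% in Tet2+/+ and 0.642%, 1.06% and 0.880% in Tet2-/-, where they overlapped.

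With 2 bases on each side, the members form 36 hexamers, counted with their reverse complement, and these spread widely. TACGTA was the highest hexamer in each library, with 79.2% and 75.3% in Tet2+/+ and 81.7%, 85.9% and 80.2% in Tet2-/-. CTCGAG was the lowest in each library, with 44.0% and 37.99% in Tet2+/+ and 48.5%, 55.8% and 43.0% in Tet2-/-. The hexamers TACGTA and CTCGAG thus differed by more than any pair of libraries did within either of them. All 36 hexamers had a higher mean in Tet2-/-, by 5.23 to 11.4 points, and in 25 of them no libraries of the groups overlapped. Without library 24 the range was 3.03 to 7.82 points, and without library 7 it was 2.59 to 8.94 points. The largest difference was that of GACGTC, from 57.5% to 69.0%, followed by AACGTT, from 47.3% to 58.7%. The smallest was that of TTCGAA, from 54.2% to 59.4%, where library 8 (54.5%) lay below library 23 (56.4%). CACGTG, the core E-box that bHLH factors such as MYC bind, was at 51.6% in Tet2+/+ and 61.1% in Tet2-/- and so lay within the range of the other hexamers. The hexamers that lead these orders were named after their values were seen.

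The distance to the next CpG went with the level, though not in even steps. Members whose nearest CpG was 36 to 50 bp away were at 57.9% in Tet2+/+ and 66.8% in Tet2-/-, and those more than 200 bp from any CpG were at 50.5% and 57.4%. In between, the level was 54.6% and 62.9% at 51 to 100 bp and 55.7% and 63.4% from there to 200 bp. The difference between the groups was 8.91 points for the closer and 6.94 points for the most isolated dyads. Without library 24 these were 5.92 and 3.73 points, and without library 7 they were 6.44 and 4.28 points. Among the latter library 8 (52.5%) was below library 23 (53.7%). When isolation was dropped and 1 other CpG lay within 35 bp, the level of dyads between A or T was 63.7% in Tet2+/+ and 72.8% in Tet2-/-. With 2 other CpGs it was 64.9% and 74.3%, and the groups did not overlap (67.7% and 62.1% against 73.6%, 78.3% and 70.9%). With 3 or more it was 53.2% and 59.4%. The level was thus highest between the isolated and the densest dyads.

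Second neighbors and base composition had opposite relations to the level and to the difference. Members with A or T also at both second positions were at 58.9% in Tet2+/+ and 66.1% in Tet2-/-, and those with C or G at both were at 50.9% and 60.2%. In the 68 bases around the CpG and its neighbors, members with at most 19 G or C were at 59.5% in Tet2+/+ and 65.7% in Tet2-/-. Those with at least 40 were at 50.9% and 61.2%. The difference between the groups went from 6.23 points in the first of these classes to 10.2 points in the last, in which the groups did not overlap. Without library 24 these differences were 3.14 and 8.04 points, without library 7 3.65 and 7.50 points, and without library 23 9.31 and 12.4 points. Depth moved with this measure. It was 1.20 to 2.22 calls per member in the first class and 3.63 to 6.81 in the last, and its part in the result was not tested. In soft-masked repeats of the reference the members were at 53.6% in Tet2+/+ and 60.5% in Tet2-/-, and outside them at 55.5% and 63.9%.

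Members in genes were more methylated than those outside. In exons of protein-coding genes (106236 members) the level was 66.8% and 61.5% in Tet2+/+ and 70.8%, 76.8% and 69.9% in Tet2-/-, without overlap. In introns (1140811 members) the group means were 60.03% and 68.1%. Outside genes (1751416 members) they were 50.9% and 58.9%, and there library 8 (53.8%) lay just below library 23 (54.0%). Dyads between C or G differed less by location, with 76.8% in exons and 73.7% outside genes in Tet2+/+.

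The distance to the nearest 5′ end of a protein-coding gene gave a hump. Within 1 kb, where promoters and CpG islands lie, the members were at 37.1% ± 2.99 in Tet2+/+ (SD, n = 2) and 45.3% ± 3.48 in Tet2-/- (SD, n = 3). At 5 to 20 kb they reached 61.3% ± 3.48 and 69.8% ± 4.40. Beyond 500 kb they came down to 43.3% ± 5.33 and 49.6% ± 4.91. The difference was largest at 1 to 5 kb, with 9.44 points, where the groups did not overlap, and smallest beyond 500 kb, with 6.30 points. Beyond 500 kb it was 2.53 points without library 24, 3.90 points without library 7 and 10.1 points without library 23. In that last class the libraries were at 47.1% and 39.6% in Tet2+/+ and at 49.9%, 54.4% and 44.6% in Tet2-/-, so that library 8 was below library 23. Dyads between C or G were also low within 1 kb (46.7% in Tet2+/+), but beyond 500 kb they were at 73.4%. Depth of the members was lower there too, at 2.22 to 3.77 calls, and its part in the result was not tested.

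**Figure D2:**
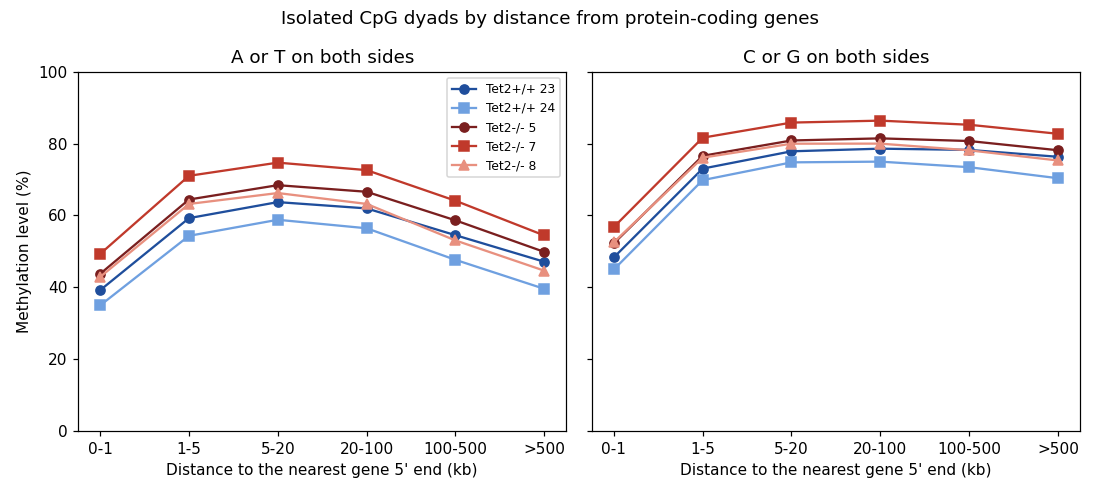
Methylation level (%) of isolated CpG dyads against the distance to the nearest 5′ end of a protein-coding gene (kb), for dyads between A or T (left) and between C or G (right). Each line is a library. The members come down to 39.6% to 54.4% beyond 500 kb, where the dyads between C or G are at 70.4% to 82.8%.

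On the scale of 100 kb windows, the members split the genome into a low and a high part. Of 24031 windows with a member, 23818 had at least 50 calls in every library. From the 25th to the 75th percentile the windows ran from 46.2% to 67.4% in library 23 and from 37.1% to 65.1% in library 24 (Tet2+/+). They ran from 49.4% to 72.4% in library 5, from 53.8% to 79.5% in library 7 and from 43.8% to 70.7% in library 8 (Tet2-/-). Counting error in a window was 1.87 to 2.49 points (median binomial SD), against an SD over windows of 13.01 to 15.7 points. In bins of 2.5 points, library 24 had its fullest bins centered on 33.75% and 68.75%, with 3.45% of windows in the emptiest bin between them. Libraries 5, 7 and 8 had theirs at 46.25% and 73.75%, 51.25% and 81.25%, and 43.75% and 71.25%. Library 23 had 1 broad peak near 46.25%, without a clear trough.

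Fewer windows were low in Tet2-/-. Windows with a level under 60% made up 59.6% and 65.9% of the windows in Tet2+/+ and 47.9%, 37.7% and 57.9% in Tet2-/-. The groups did not overlap, but library 8 was close to library 23. The difference of the means was -14.9 points (exact permutation test, two-sided, p = 0.2), and -9.85 points without library 7. Under 50% the groups overlapped, with 35.7% and 51.4% of windows in Tet2+/+ and 26.2%, 15.9% and 41.4% in Tet2-/- (exact permutation test, two-sided, p = 0.3). The median window was at 55.7% and 49.0% in Tet2+/+ and at 61.1%, 67.4% and 54.4% in Tet2-/-, where the groups overlapped. At the low end, the 5th percentile of windows was 38.4% and 28.9% in Tet2+/+ and 40.9%, 44.4% and 35.9% in Tet2-/-, and at the high end the 95th percentile was 79.1% and 76.3% against 81.6%, 87.5% and 81.9%.

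**Figure D3:**
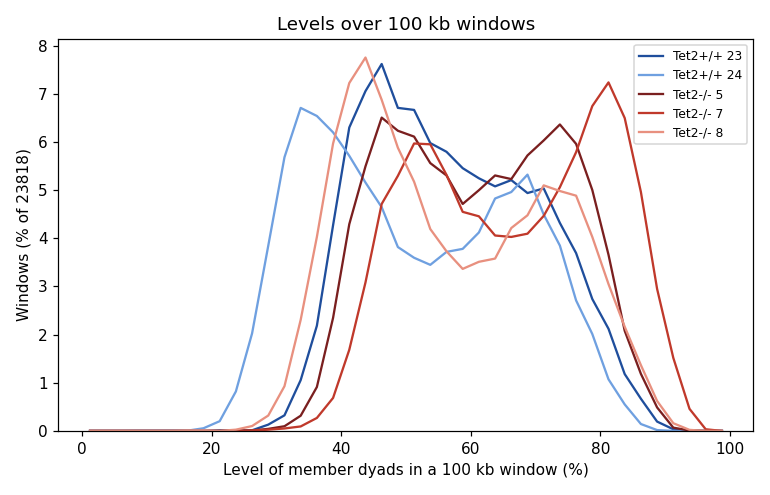
Share of 23818 windows of 100 kb (%) by the level of their member dyads (%), in bins of 2.5 points, with a line for each library. Libraries 24, 5, 7 and 8 have a low and a high peak, and library 24 has the lowest low peak, at 33.75%.

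The windows kept their order between libraries. Over the 23818 windows Pearson's r between libraries was 0.870 to 0.940, and between neighboring windows of a library 0.730 to 0.805, given as descriptions since windows share libraries and neighbors. When windows were ranked by library 23 alone and read in the others, the lowest quintile was at 32.9% in library 24 and at 44.7%, 49.1% and 39.998% in libraries 5, 7 and 8. The highest quintile was at 72.2% in library 24 and at 78.4%, 84.1% and 77.5% in libraries 5, 7 and 8. Windows without a protein-coding gene (8402 windows) had member levels of 47.8% in Tet2+/+ and 55.1% in Tet2-/-, and those more than 50% covered by genes had 60.1% and 68.4%. In the quintile of windows with the fewest CpGs the difference between the groups was 6.27 points, and in that with the most it was 9.67 points. Library 8 was below library 23 in the windows without a gene (49.5% and 51.3%) and in the quintile with the fewest CpGs (44.9% and 47.7%). Without library 24 the difference was 3.76 points in windows without a gene, and 2.53 and 7.14 points in the quintiles with the fewest and the most CpGs, and without library 7 these were 4.59, 3.78 and 7.27 points.

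Windows in which all 5 libraries were below 50% numbered 3369 (14.1%), and 66.6% of them held no protein-coding gene, against 35.3% of all windows tested. Windows above 70% in all 5 libraries numbered 2840, and 10.8% of these held none. The longest unbroken stretch below 50% covered 31 windows at chr7:59400001-62500000, with *Snrpn*, *Ndn*, *Magel2*, *Mkrn3* and *Peg12*, imprinted genes that are expressed from the paternal copy. It was at 37.99% and 29.3% in Tet2+/+ and at 40.1%, 42.2% and 36.7% in Tet2-/-. A stretch of 18 windows at chr4:112500001-114300000 holds *Skint* genes, whose founding member acts in γδ T cell selection. It was at 38.5% and 28.4% in Tet2+/+ and at 38.7%, 41.7% and 34.9% in Tet2-/-. These stretches were named by their length, after the values were seen.

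Among windows with at least 100 calls in every library, the lowest held *Hoxc* genes, which pattern the body axis, at chr15:102900001-103000000. It was at 16.1% and 10.2% in Tet2+/+ and at 23.1%, 28.4% and 15.1% in Tet2-/-. It was also rich in CpGs, with 2050 dyads, and its dyads between C or G were low as well, at 22.4% to 36.9%. The other 2 lowest windows were poor in CpGs. One holds the odorant receptor genes *Olfr297* and *Olfr295* (chr7:86500001-86600000) and was at 19.6% to 30.7%, while its dyads between C or G were at 56.1% to 71.6%. The other (chr17:93400001-93500000) holds no protein-coding gene and was at 17.6% to 33.4%. Of the 3 highest windows, 2 are adjacent in *Arhgap15*, which encodes a GTPase-activating protein for Rac (chr2:44000001-44200000), and 1 lies in *Faf1*, which encodes a FAS-associated factor (chr4:109800001-109900000). Over these 3 windows the members were at 84.6% to 95.2% in all libraries, close to the level of dyads between C or G, which was 87.6% to 97.2%.

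When each window was tested by the quasi-likelihood method of edgeR, 138 of 23818 windows (0.579%) had higher member levels in Tet2-/- and 15 (0.063%) had lower ones at a Benjamini-Hochberg adjusted p under 0.05. All Tet2-/- libraries lay above both Tet2+/+ libraries in 46.2% of the windows and below both in 0.815%. The median difference over all windows was 7.53 points. The number of calls depended on single libraries. Without Tet2+/+ library 24 edgeR called 0 windows, with 350 at an unadjusted p under 0.05. Without Tet2-/- library 5 it called 1 and without Tet2+/+ library 23 it called 27, whereas without library 8 it called 343. Leaving out a Tet2+/+ library leaves 1 in that group. As a whole the libraries of the groups differed by 0.51 in the median log2 ratio of methylated to unmethylated calls. The ratio was 0.330 and -0.0573 in Tet2+/+ libraries 23 and 24. It was 0.645, 1.04 and 0.255 in Tet2-/- libraries 5, 7 and 8, so that library 8 lay below library 23. This shift between the libraries was taken out in limma by subtracting each library's median, so windows were compared by their distance from it. By that measure 72 windows (0.302%) were called higher and 258 (1.08%) lower in Tet2-/-. A lower call here means a difference below the shared shift and need not be a fall in level. Of the 138 higher windows 69 were also called in that way, and of the 15 lower windows 15 were. The subtraction itself makes a fall larger and a rise smaller, so these shares do not compare how firm the calls are. In windows of dyads with A or T on 1 side 28 (0.117%) were higher, and of dyads between C or G 1 was (0.00423%), and edgeR called no window of these classes lower, with 4531 and 4186 windows at an unadjusted p under 0.05. With limma 1 window of the first class was higher and 2 of the second were lower. After the shift was taken out, limma called 98 higher and 240 lower in the first class and 0 higher and 12 lower in the second. The classes differ in depth and in their number of dyads, and their numbers of calls were not tested against each other.

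The 138 higher windows formed 118 separate stretches. Their median window went from 57.7% and 45.4% in Tet2+/+ to 71.5%, 82.3% and 71.5% in Tet2-/-. The largest gain was in *Col4a1*, a chain of basement membrane collagen IV (chr8:11200001-11300000, 121 members), with 49.2% and 31.4% in Tet2+/+ and 67.6%, 84.1% and 73.6% in Tet2-/-. This is a rise of 34.8 points (edgeR adjusted p = 0.000112). The groups did not overlap, which the rule for naming windows of gain and loss requires, and the 2 Tet2+/+ libraries also differed from each other. The dyads between C or G of the *Col4a1* window were at 74.0% and 60.9% against 83.7%, 91.1% and 86.8%. The next was in *Pcdh1*, a protocadherin of cell adhesion (chr18:38100001-38200000), which was at 42.4% and 35.9% against 66.02%, 75.3% and 66.7%, a rise of 30.2 points (edgeR adjusted p = 0.00418). The third was in *Prkch*, which encodes protein kinase C eta (chr12:73600001-73700000), at 50.4% and 40.6% against 69.8%, 78.7% and 76.6%, a rise of 29.5 points (edgeR adjusted p = 0.00418). Without library 23 the adjusted p of edgeR was 0.0135 for *Col4a1*, 0.0704 for *Pcdh1* and 0.0544 for *Prkch*, and without library 24 it was 0.999 for each. Without library 5 it was 0.00890 for *Col4a1* and 0.172 for *Pcdh1* and *Prkch*. The rises themselves were still 25.9 points in *Col4a1*, 26.9 in *Pcdh1* and 24.6 in *Prkch* without library 24, and 38.6, 31.9 and 32.1 points without library 5. The longest stretch of adjacent higher windows, 5 in number, lies in *Tcf4* (chr18:69300001-69800000), which encodes an E protein transcription factor. Stretches of 3 adjacent windows lie over *Tmem30b* and *Prkch* and, without a gene, at chr15:93700001-94000000. Pairs lie in *Adgrl2*, *Adamts3*, *Rasgef1b*, *Mical2*, *Sash1*, *Fstl4*, *Pde4d* and *Gpc5*. Further pairs lie in *Bach2* (chr4:32300001-32500000), a transcriptional repressor of lymphocytes, and over *Col4a1* and *Col4a2*. The remaining pairs lie over *Fam234b* to *Emp1* and, without a gene, at chr11:44000001-44200000. These stretches were named after the values were seen.

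The 15 lower windows had Tet2+/+ means of 68.8% to 81.3%, and the 138 higher ones of 32.2% to 73.8%, levels that the calls themselves constrain. Of the lower windows 14 held no protein-coding gene, and of the 138 higher windows 26, where 35.3% of all tested windows held none. The difference was not tested. The exception, at chr8:38500001-38600000, lies in *Sgcz*, which encodes a sarcoglycan. This window was at 69.6% and 81.6% in Tet2+/+ and 52.4%, 49.5% and 40.6% in Tet2-/-. *Sgcz* is also among the long neuronal genes listed below, but its 5′ end lies in another window. The 15 windows formed 8 stretches, of which the longest covered 4 windows (chr12:65500001-65900000). The largest loss was at chr16:53800001-53900000 (129 members), with 76.0% and 80.7% in Tet2+/+ and 50.4%, 55.0% and 36.9% in Tet2-/-. This is a fall by 30.9 points (edgeR adjusted p = 0.0049). The dyads between C or G of this window on chromosome 16 were at 84.3% and 77.8% against 75.3%, 76.3% and 56.6%. Those that followed were chr12:65500001-65600000, which fell by 29.8 points (edgeR adjusted p = 0.0112), and chr16:54000001-54100000, which fell by 29.6 points (edgeR adjusted p = 0.0151). The adjusted p of edgeR without library 5 was 0.249 to 0.330 for these 3 windows, and without library 24 it was 0.999. The differences were still -32.4, -33.9 and -29.02 points without library 5 and -28.6, -25.2 and -23.9 points without library 24. The nearest protein-coding genes to the stretches on chromosome 16 were *Alcam* and *Zpld1*, at 1125 to 1325 kb.

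**Figure D4:**
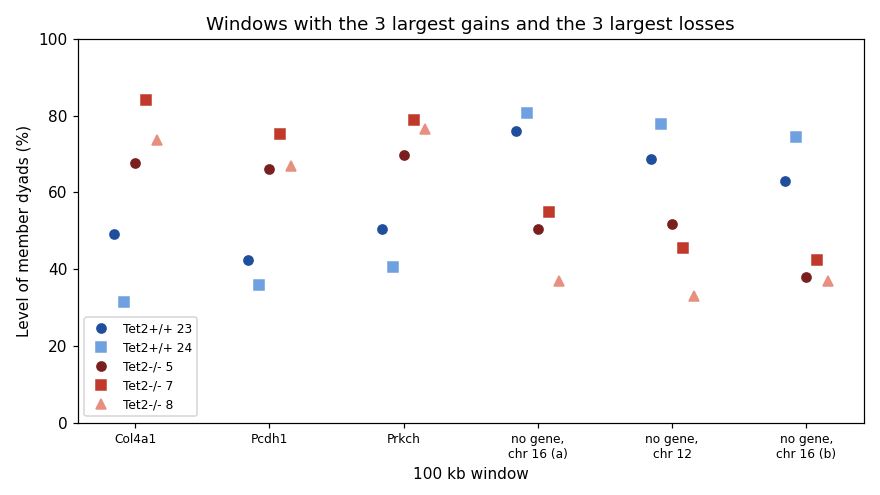
Level of member dyads (%) in the 3 windows of 100 kb with the largest rise (left, named by their gene) and the 3 with the largest fall (right, without a protein-coding gene) in Tet2-/-. Points are libraries. The Tet2+/+ libraries (blue) are at 31.4% to 50.4% in the first 3 windows and at 63.1% to 80.7% in the last 3.

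The gene lists below were chosen with earlier results of these data known. None of the windows that hold the 5′ end of listed blood genes passed the threshold, where 0.579% of all windows were called higher and 0.063% lower, shares under 1 window in lists of this size. For 18 stem cell and leukemia factors in 17 windows, the median level was 58.3% and 56.6% in Tet2+/+ and 65.01%, 71.4% and 67.4% in Tet2-/-. The median difference was 9.48 points over these windows and 7.53 points over all windows. In 12 of them (70.6%) the groups did not overlap, and the same held for 46.2% of all windows. The share was 63.6% to 81.8% in the lists of mature lineages, 66.7% for the methylation machinery and 74.0% for ribosomal proteins. The lowest was the window of *Hoxa9* and *Hoxa10*, homeobox genes of leukemic self-renewal, at 28.9% and 23.2% against 41.0%, 45.5% and 41.3%. The highest was that of *Kit*, the receptor of stem cell factor, at 71.9% and 68.7% against 79.4%, 85.7% and 72.5%.

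The lists of mature lineages lay close together. For 24 myeloid genes in 22 windows the median level was 61.8% in Tet2+/+ and 69.4% in Tet2-/-, with a median difference of 7.02 points. Among them the shared window of the neutrophil proteases *Elane* and *Prtn3* was lowest, at 50% and 51.4% against 55.9%, 65.5% and 52.3%. That of *Csf1r*, the receptor of macrophage colony-stimulating factor, was highest, at 76.0% and 73.1% against 78.5%, 86.8% and 80.2%. For 20 lymphoid genes in 18 windows the median difference was 9.66 points, with *Ebf1*, a factor of B cells, lowest (48.9% and 39.1% against 57.2%, 55.9% and 42.1%) and *Tcf7*, a factor of T cells, highest (73.4% and 71.4% against 79.4%, 82.0% and 78.6%). For 13 of 16 erythroid genes in 11 windows it was 10.5 points, and for 12 genes of mast cells and basophils in 11 windows it was 6.94 points. *Slc4a1*, the anion exchanger of red cells, and *Tpsb2*, a tryptase of mast cells, had the lowest windows of the erythroid and mast cell lists, with means of 40.2% and 34.8% in Tet2+/+ and 56.2% and 49.2% in Tet2-/-. The highest of the mast cell list was that of *Cpa3*, a carboxypeptidase of mast cells (72.7% and 67.9% against 74.8%, 80.0% and 75.7%).

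Neuronal and chemosensory genes lay lowest and the methylation machinery highest. For 30 long neuronal genes the median level was 46.9% and 36.9% in Tet2+/+ and 47.5%, 52.4% and 42.8% in Tet2-/-. The groups did not overlap in 5 of these 30 windows (16.7%), below the share of all windows, and the median difference was 6.30 points. Without library 24 the medians of this list differed by 0.672 points, against 5.67 points with it, without library 7 by 3.26 points and without library 23 by 10.7 points. *Cntn4*, a contactin of axons, was lowest, at 34.6% and 28.1% against 38.3%, 39.8% and 33.2%. Odorant receptor genes (1126 genes in 332 windows) had medians of 45.1% in Tet2+/+ and 52.7% in Tet2-/-, and vomeronasal receptor genes (289 genes in 168 windows) of 41.0% and 46.8%. The receptor windows ranged widely. *Olfr295* was lowest and *Olfr266* highest among odorant receptors, the latter at 83.8% and 82.8% against 83.8%, 91.4% and 79.1%. Among vomeronasal receptors *Vmn2r69* was lowest, at 31.3% and 19.3% against 27.1%, 38% and 32.8%, and *Vmn2r19* highest, at 78.4% and 74.0% against 79.7%, 86.1% and 75.4%. Without library 24 their medians differed by 3.42 and 2.28 points, against 7.64 and 5.81 points with it, and without library 23 by 11.9 and 9.33 points. Of the windows of these lists 1 passed the threshold, that of *Vmn1r238* (chr18:3100001-3200000), at 58.5% and 38.1% against 67.9%, 79.0% and 71.3% (a rise of 24.4 points, edgeR adjusted p = 0.0396). This 1 of 168 vomeronasal windows is near the 0.579% of all windows called higher. Genes of the methylation machinery, 12 in 12 windows, had medians of 69.7% and 75.9%, with *Zfp57*, which guards imprints, lowest (54.4% and 56.1% against 63.9%, 74.5% and 61.7%) and *Cdca7*, a partner of the remodeler HELLS, highest (72.7% and 72.3% against 78.9%, 85.8% and 81.2%). Genes of cytosolic ribosomal proteins, which every cell uses, had medians of 61.5% and 70.6% in 77 windows, with *Rps9* lowest (33.8% and 41.2% against 49.5%, 49.0% and 37.9%) and *Rpl35* highest (76.7% and 69.3% against 80.0%, 84.3% and 82.5%). None of the 77 ribosomal or 12 machinery windows passed the threshold in either direction, which is also near the share over all windows. After the shift between libraries was taken out with limma, some windows were called lower in Tet2-/- relative to their library's median. Such a call need not be a fall in level. These were 9 of 168 vomeronasal, 4 of 332 odorant, 1 of 30 long neuronal and 1 of 77 ribosomal windows, where 1.08% of all windows were. In the vomeronasal list 1 window, that of *Vmn1r238*, was called higher. No window of the blood and machinery lists was called in that way.

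**Figure D5:**
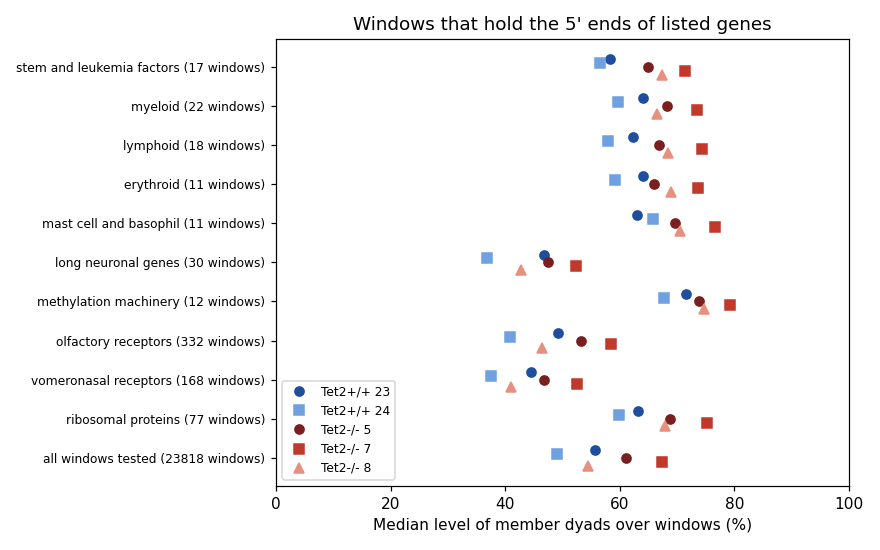
Median level of member dyads (%) over the 100 kb windows that hold the 5′ ends of listed genes, with a point for each library. Long neuronal, odorant and vomeronasal receptor genes are to the left of the other lists, at 36.9% to 58.5%, and genes of the methylation machinery lie farthest right, at 67.8% to 79.3%.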

How the data were processed

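According to the labels and the study's methods, the authors made whole-genome bisulfite libraries with the Pico Methyl-Seq kit, trimmed reads with Trim Galore 0.4.3, aligned them to GRCm38 (mm10) with Bismark 0.19.1 and Bowtie2 (non-directional), deduplicated the reads and deposited counts of methylated and unmethylated calls per CpG cytosine, not normalized. The genotype in each title gave the group. Here the counts of both strands were added per dyad, and all 20383623 autosomal dyads matched the reference. Genes were those of GENCODE M21, and soft-masking that of RefSeq. A level is methylated over all calls.

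Single values were compared by an exact permutation test of the absolute difference of group means (scipy 1.17.1). Windows of 100 kb with at least 50 calls per library were tested with edgeR 4.0.16 (glmQLFit and glmQLFTest, methylated and unmethylated counts, a coefficient per library), adjusted by Benjamini-Hochberg over all windows, and with limma 3.58.1. The edgeR test was checked on simulated data. The simulated libraries had no shift between them, so that check does not cover the shift seen in the real libraries. Windows named were, with at least 100 calls per library, the 3 lowest and 3 highest by mean level and the 3 largest gains and losses past the threshold without overlap between groups. Of a gene list, read in the window of the 5′ end, the lowest and highest and those past the threshold were named, except for some that are not reported here. The rule for members reads position and sequence only, but it and the lists were chosen with earlier results of these data known. The other chromosomes were not used here, except the mitochondrial control.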

Additional observations from a re-analysis of the deposited data

How the results depend on the processing

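The level difference of the member dyads kept its direction under all alternatives, at 7.43 to 8.40 points, and at 5.18 to 11.1 points without 1 library, as did the share of low windows (-14.9 to -16.9 points), with -9.85 to -19.9 points without 1 library. The gap between flank classes kept its direction under the other dyad sets (-1.34 to -3.26 points without 1 library) but turned on the log-odds scale (0.00951) and as a ratio of unmethylated shares (0.137), both chosen after seeing the data. The 153 windows called became 498 with the likelihood ratio test, 330 after subtraction of each library's median, 567 in windows of 50 kb, 1 in windows of 500 kb, 258 with isolation of 20 bp and 0 to 343 without 1 library. The cause was not tested. With A or T on 1 side edgeR called 28 windows, limma 1 and limma after that subtraction 338, and between C or G 1, 2 and 12. The median window difference was 7.50 to 7.67 points, and 4.502 to 10.8 points without 1 library. The context gap, chosen after seeing the data, was 1.40 to 2.11 points larger in Tet2-/- over the dyad sets tried. For the classes of dyads and windows and the gene lists, 610 of 610 differences without 1 library kept their direction. These classes and lists are overlapping cuts of the same calls and share the shift between the libraries, so this count is not separate support. Of 122 each, 80 moved by over 1.5 times without library 24, 46 without 7, 8 without 23 and 1 without 8. A group left with 1 library is assumed to vary like the other. No paired analysis was possible because the groups share no replicate number. Depth limits single dyads, at 2.85 to 4.74 calls.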

Other observations

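In the mixed dyads both strands can be read from the same sites. The strand read as TCGT was less methylated than the strand read as ACGA in all 5 libraries, by -1.14 and -0.914 points in Tet2+/+ and by -0.740, -0.754 and -0.395 points in Tet2-/-. The order of the strands was thus the reverse of that of the palindromes ACGT and TCGA when these are compared by the base after the CpG.

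The difference between the groups was of like size over the chromosomes. It was 7.31 to 9.17 points over the 19 autosomes, and in 15 of them all Tet2-/- libraries lay above both Tet2+/+ libraries. For isolated dyads with A or T on 1 side and for those between C or G this held on every autosome. The Tet2+/+ mean was 52.9% on chromosome 7 and 59.0% on chromosome 13. Chromosome 15, whose depth was raised in libraries 23, 5, 7 and 8 (4.03 to 6.68 calls per member), differed by 8.10 points.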
